A study of Mus musculus with 4 samples.

Results

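TRIM genes encode tripartite motif proteins, a family in which a RING finger, 1 or more B-box zinc fingers and a coiled coil stand in a row ahead of a variable C-terminal part. They were followed here in RAW 264.7 cells, a mouse macrophage line, and chosen by name: every gene of the deposited RefSeq transcript tables whose mouse symbol starts with Trim and a digit, which gave 68 of 24530 genes and unnamed transcripts. Of these, 15 were listed, from general knowledge, as responding to interferon in mouse cells, and the remaining 53 formed the comparison group.

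The study sequenced poly(A) RNA in 4 libraries, 2 from cells stably carrying the empty vector pcDNA 3.1(+) and 2 from cells stably expressing Dnm3os, a long noncoding RNA. Both groups were grown in 5.5 mmol/L glucose and used between passages 3 and 6, and no interferon or other stimulus is named in the labels. Whether a group was 1 clone or a pool, and whether its 2 libraries came from separate cultures, is not stated, so p-values measure only the spread between these libraries, which may be technical.

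The RING finger makes most TRIM proteins ubiquitin ligases: it recruits a ubiquitin-charged E2 enzyme, while the C-terminal part, often a SPRY domain, picks the substrate. Some members lack a RING, among them Trim14, Trim16, Trim44 and Trim66, so the family name covers more than ligases. In macrophages the family is best known for antiviral work. Trim25 modifies the RNA sensor RIG-I, Trim21 binds antibody-coated virus inside the cell, and Trim30a restrains signalling to NF-kB. Interferon induces many of these genes through the factor ISGF3 and related IRF proteins, which bind DNA elements built from repeated GAAA.

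That DNA element was looked for first, because it describes the groups by something other than their name. The promoter windows are those of RefSeq (build GRCm38.p6, 250 bases before to 50 after the gene start) and hold 52 of the 68 members. The motif GAAANNGAAA, searched on both strands with overlapping matches allowed, was present in 8 of 14 interferon-responsive members (57.1%). It was present in 1 of 38 other members (2.63%), the NHL-domain gene Trim2, and in 3.99% of the 27025 genes with a window. Among 24 other genes of interferon signalling and its targets the share was 41.7%. The stretches below show it in 30-base windows read along each gene's own strand, with the matched bases in capitals; TTTCNNTTTC is the same motif on the opposite strand.

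Trim5 (GRCm38.p6, chr7:104288136-104288165, minus strand): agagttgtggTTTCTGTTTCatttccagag
Trim12a (chr7:104315466-104315495, minus strand): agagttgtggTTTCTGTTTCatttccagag
Trim12c (chr7:104353359-104353388, minus strand): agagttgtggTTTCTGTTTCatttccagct
Trim30a (chr7:104465210-104465239, minus strand): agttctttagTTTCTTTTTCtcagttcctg
Trim30d (chr7:104507871-104507900, minus strand): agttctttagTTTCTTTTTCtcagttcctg
Trim34a (chr7:104244457-104244486, plus strand): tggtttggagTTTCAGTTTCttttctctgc
Trim21 (chr7:102565450-102565479, minus strand): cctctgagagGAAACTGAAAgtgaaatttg
Trim26 (chr17:36836976-36837005, plus strand): ccgcttccgaTTTCACTTTCcttttctcgg

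The stretches of Trim5 and Trim12a were identical, as were those of Trim30a and Trim30d, and a second window of Trim30a, not shown, also held a match. Trim21 and Trim26 each held a second, overlapping match. A match is a description of letters and not a measured binding site.

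Before the members, the labels and the libraries were checked. Dnm3os had 0 counts in both empty vector libraries and 208 and 260 counts in the Dnm3os libraries. Totals over 1 transcript per gene ran from 29416272 to 39769640 counts, so 0 counts in a library allows up to 0.0752 to 0.102 CPM (counts scaled to a common library size), a limit that covers counting error only. All 7 macrophage markers were tested. By the edgeR test described below, Csf1r, Itgam and Lyz2 rose and Adgre1 and Cd68 fell, a called share of 71.4% beside 12.3% of all genes. The level summed over all 7 was 8814 to 8980 CPM in the empty vector and 9666 to 10159 CPM in the Dnm3os libraries. Most of that sum was Lyz2, with 6940 to 7089 CPM and 7578 to 8038 CPM. The part of these marker changes in the results on TRIM genes was not tested. Of 11 markers of fibroblasts, epithelium, endothelium, T cells and B cells, 4 (Col1a2, Pdgfra, Epcam and Cd3e) were at 0 in every library and the other 7 had too few counts to test, the highest being Cdh5 with 2 to 6 counts.

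Among the 68 members, 41 had enough counts to be tested, 13 had a few counts and 14 had none. A single one of the 41 passed the test, Trim47, which was lower with Dnm3os, and 0 members were higher (two-sided quasi-likelihood test of edgeR, with a threshold of 0.05 on the Benjamini-Hochberg adjusted p over all 13172 genes tested). That is 2.44% of the tested members, beside 12.3% of all genes tested (6.51% higher and 5.75% lower). At an unadjusted p under 0.05, 3 members were higher and 2 lower, where 23.2% of all genes passed. DESeq2 called 0 members higher and 1 lower, beside 5.82% of all genes. Read depth was lower for the members, with a median of 14.0 CPM beside 26.3 CPM for all tested genes, and their median absolute log2 fold change was 0.058 beside 0.077. The groups did not overlap for 18 of the 41 (43.9%), 11 above and 7 below, beside 51.2% of all genes tested (26.2% above and 25.0% below). In bulk RNA, fewer cells of a type and less RNA per cell cannot be told apart.

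**Figure D1:**
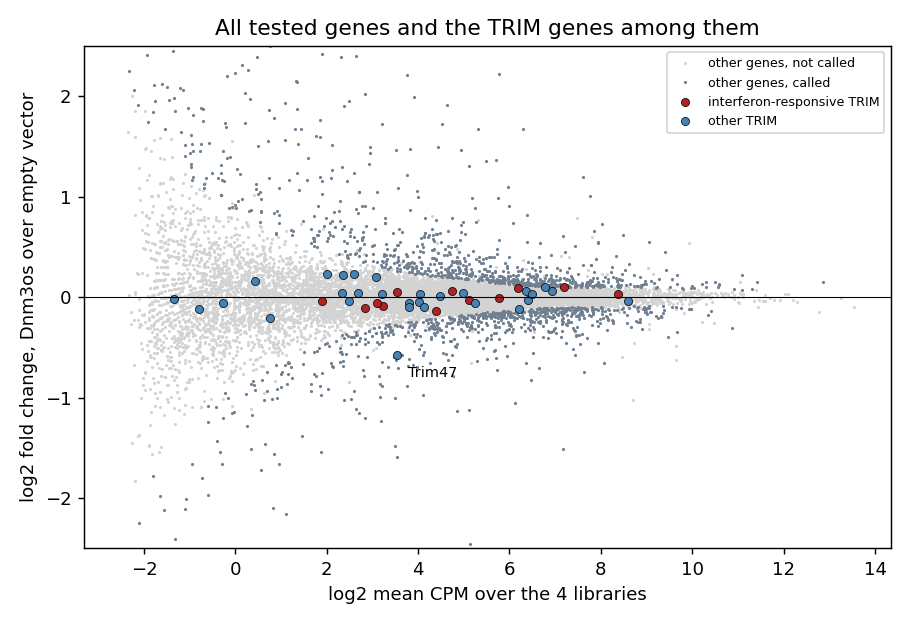
Log2 fold change (Dnm3os over empty vector) against log2 mean CPM for the 13172 tested genes; large points are the 41 tested TRIM genes, and 45 genes lie beyond the vertical range. Trim47 lies at -0.58, and the 40 others lie between -0.21 and 0.23.

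Trim47, a ligase with a SPRY domain, had 565 and 487 counts with empty vector against 267 and 331 with Dnm3os. As CPM its levels were 14.2 and 13.8 against 9.07 and 9.65. Both Dnm3os libraries were below both empty vector libraries, and the gap between the groups was larger than the gap within either. Its mean fell from 14.0 ± 0.272 to 9.36 ± 0.411 CPM (SD, n = 2 per group), a log2 fold change of -0.58 ± 0.09 (SE; edgeR adjusted p = 3.96e-05), or 1.49-fold lower with a nominal 95% interval from 1.32 to 1.69. DESeq2 gave an adjusted p of 0.000826. The call held under all 11 alternatives run, with log2 fold changes from -0.62 to -0.54 and adjusted p from 2.07e-08 to 0.00383 by edgeR or DESeq2.

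The genes beside it did not pass the test. On chromosome 11, RefSeq places Trim47 between Wbp2 and another TRIM gene, Trim65, whose protein is a ligase for the RNA sensor MDA5. Trim65 had 5.82 and 5.63 CPM with empty vector against 5.57 and 5.54 with Dnm3os (-0.04 ± 0.11; edgeR adjusted p = 0.886), with an interval of its log2 fold change from -0.28 to 0.19. Wbp2 had a log2 fold change of -0.10 ± 0.04 (edgeR adjusted p = 0.131) and Mrpl38, a mitochondrial ribosomal protein gene on the far side of Trim65, -0.08 ± 0.05 (edgeR adjusted p = 0.380). The difference between these genes and Trim47 was not tested. None of the 50-base words of the Trim47 transcript occurred in a GENCODE transcript of another gene, whereas 5.94% of those of Trim65 occurred in transcripts named Trim47. The deposited counts for the second Trim47 transcript were 564, 487, 267 and 331, nearly the same as those for the first.

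The 250 bases before the start of Trim47 are shown because it is the member that passed the test; capitals mark matches to GGGCGG on either strand, the letters of a GC box, which Sp1-type factors can bind.

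Trim47 (GRCm38.p6, chr11:116110236-116110485, minus strand): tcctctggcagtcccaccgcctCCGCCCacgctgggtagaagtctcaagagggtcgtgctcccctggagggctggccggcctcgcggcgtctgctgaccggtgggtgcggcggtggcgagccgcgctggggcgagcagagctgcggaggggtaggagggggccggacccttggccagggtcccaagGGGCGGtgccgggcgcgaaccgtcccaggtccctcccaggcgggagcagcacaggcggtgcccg

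It held 2 such matches. At least 1 match lay in 40.4% of the 52 TRIM windows cut to those 250 bases and in 35.4% of all windows, and the Trim47 window held no GAAANNGAAA.

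Interferon-responsive members gave no call. Of the 15, 12 were tested: 0 were higher and 0 lower by edgeR, 2 higher and 0 lower at an unadjusted p under 0.05, and 0 of either by DESeq2. The shares over all genes tested were 12.3% called by edgeR, 23.2% at an unadjusted p under 0.05 and 5.82% called by DESeq2. Their median log2 fold change was -0.015, beside 0.0072 for the 29 tested other members and 0.00061 for all genes. Their 12 changes ran from -0.14 to 0.10, and all 12 of the 95% intervals lay inside a 1.5-fold change in either direction, 7 of them inside 1.2-fold. Among all 13172 genes tested, 10537 intervals lay inside 1.5-fold and 7550 inside 1.2-fold. Summed over the 12, the level was 719 and 721 CPM with empty vector against 744 and 732 CPM with Dnm3os, a sum of which Trim25 alone made 325 to 338 CPM. The sum was higher in both Dnm3os libraries, though 5 of the 12 log2 fold changes were positive and 7 negative. The groups did not overlap for 5 of the 12 (41.7%), 3 above and 2 below, beside 51.2% of all genes tested.

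**Figure D2:**
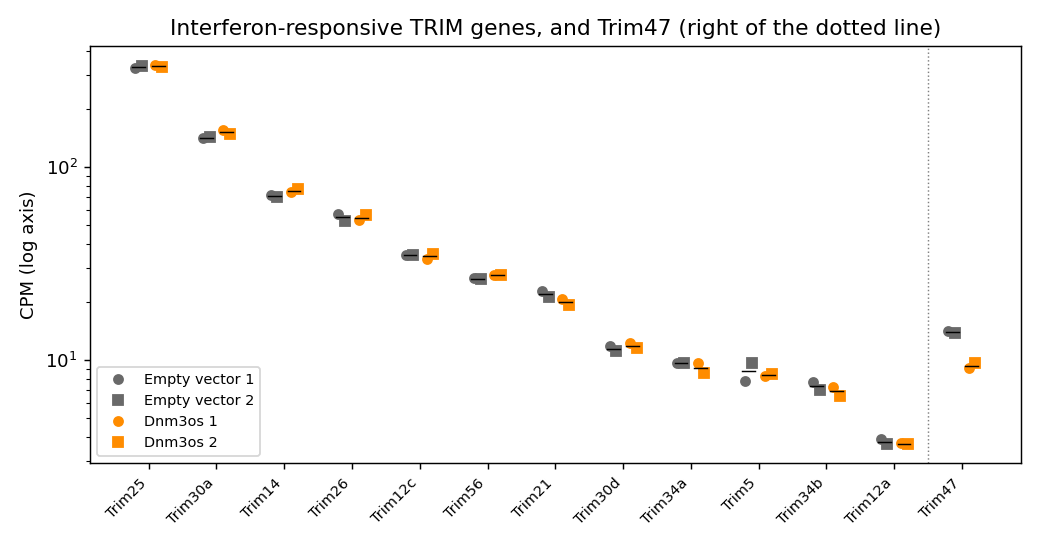
CPM on a log axis in each of the 4 libraries for the 12 tested interferon-responsive TRIM genes, with Trim47 at the right; short lines are group means over 2 libraries. The 4 points of each interferon-responsive gene lie close together, while the Dnm3os points of Trim47 (9.07 and 9.65) sit below those of the empty vector (14.2 and 13.8).

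Among the members that act on viral RNA and DNA sensing, Trim25 had 325 and 332 CPM with empty vector against 338 and 331 with Dnm3os. The groups overlapped, and the interval of its log2 fold change ran from -0.04 to 0.09. Trim14, a RING-less adaptor at mitochondria in the signalling of MAVS, had 71.4 and 70.3 against 74.6 and 76.5 CPM. Its Dnm3os libraries were both higher, by 0.09 ± 0.04 on the log2 scale, and it did not pass (edgeR adjusted p = 0.155). Trim26, which has been linked to turnover of nuclear IRF3, had 57.0 and 52.6 against 53.2 and 56.1 CPM, with the groups overlapping. Trim56, which modifies components of the STING pathway, had 26.5 and 26.3 against 27.5 and 27.4 CPM (0.06 ± 0.06; edgeR adjusted p = 0.662). Trim21, the antibody receptor of the cytosol, had 22.7 and 21.1 against 20.8 and 19.2 CPM. Both Dnm3os libraries of Trim21 were lower, but the nearest values of the groups, 21.1 and 20.8 CPM, lay closer together than those within a group (-0.14 ± 0.07; edgeR adjusted p = 0.256).

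The remaining tested interferon-responsive members stand together on chromosome 7, where 10 of the 68 members lie within 500 kb of Trim30a. Trim30a, which promotes loss of the kinase adaptors TAB2 and TAB3, had 141 and 143 CPM with empty vector against 155 and 148 with Dnm3os. Both Dnm3os values were above both empty vector values, and the change of 0.10 ± 0.03 missed the threshold (edgeR adjusted p = 0.0549; 0.367 by DESeq2). Its paralog Trim30d had 11.8 and 11.1 against 12.2 and 11.5 CPM, with overlap. Trim5, Trim12a and Trim12c are the rodent relatives of the primate retroviral restriction factor TRIM5. Trim12c had 35.1 and 35.0 against 33.5 and 35.2 CPM. Trim5 had 7.80 and 9.68 against 8.29 and 8.46 CPM, and Trim12a ranged between 3.65 and 3.89 CPM. In Trim34a and Trim34b the levels were 9.68 and 9.62 against 9.62 and 8.55 CPM, and 7.70 and 7.02 against 7.27 and 6.48 CPM.

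Not every gene of this cluster was well covered. Trim6 had 0 counts in all 4 libraries and Trim30b had 1, 2, 1 and 1, while the pseudogene Trim30e-ps1, with 21 to 34 counts, was tested. Of the 10 cluster genes 8 were tested and 0 passed by edgeR or DESeq2, beside 12.3% and 5.82% of all genes. At an unadjusted p under 0.05 by edgeR, 1 was higher and 0 lower, beside 23.2% of all genes. With 8 genes, such counts show little. Their reads are uncertain where copies are alike: 59.0% of the 50-base words of Trim34b and 41.5% of those of Trim34a occurred in another gene's transcripts. The shares were 38.1% for Trim5, 32.7% for Trim12c, 31.2% for Trim12a, 15.4% for Trim30d and 6.53% for Trim30a. Outside the cluster, the interferon-responsive Trim38 had 0, 2, 3 and 4 counts and was not tested.

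**Figure D3:**
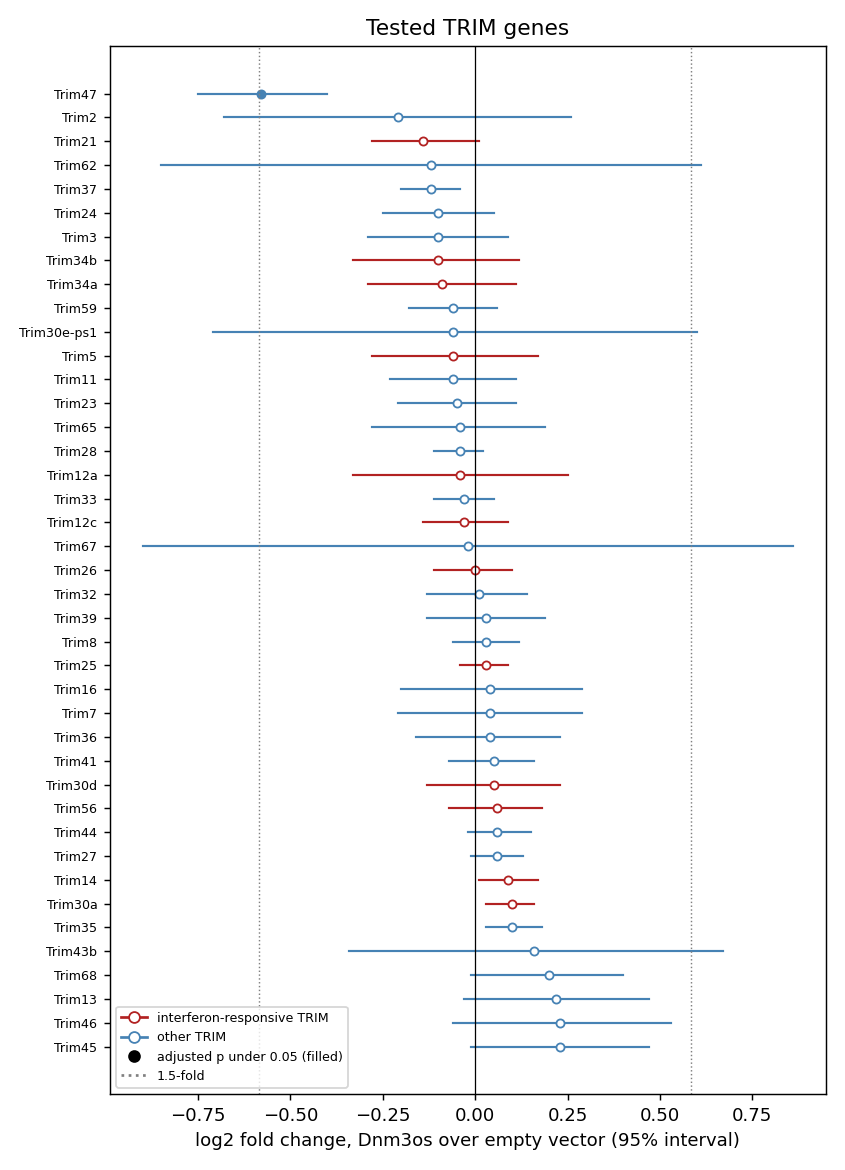
Log2 fold change with its 95% interval for each of the 41 tested TRIM genes, ordered by value; filled points passed an adjusted p of 0.05 and dotted lines mark 1.5-fold. Trim47 is the single filled point, and the intervals of 35 genes lie wholly between the dotted lines. Of all 13172 genes tested, most of them not drawn here, 10537 had intervals within 1.5-fold.

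Of the 53 other members, 29 were tested, 11 had a few counts and 13 had none; Trim47 was the 1 that fell, and 28 did not pass. The called share was 3.45%, beside 12.3% of all genes. At an unadjusted p under 0.05, 1 was higher and 2 were lower, beside 23.2% of all genes. The 1.5-fold range held the whole interval of 23 of the 29, and the 2-fold range that of all 29. Among all 13172 genes tested, these ranges held 10537 and 11901 intervals. Intervals that reached past 1.5-fold belonged, besides Trim47, to Trim2, Trim62, Trim67, Trim43b and Trim30e-ps1, all of which had mean levels under 2 CPM.

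Nuclear members with a PHD finger and bromodomain act on chromatin. Trim28, the corepressor that KRAB zinc finger proteins recruit, had 392 and 386 CPM with empty vector against 376 and 379 with Dnm3os. Both Dnm3os values were lower, by 0.04 ± 0.03 on the log2 scale, and the interval of -0.11 to 0.02 includes 0 (edgeR adjusted p = 0.441). Trim33, which acts with Smad proteins in the TGF-beta pathway, had 84.3 and 87.8 against 86.0 and 82.9 CPM, with overlap. Trim24, a nuclear receptor coregulator and ligase for p53, had 18.7 and 17.7 against 16.4 and 17.5 CPM (-0.10 ± 0.07; edgeR adjusted p = 0.490). Trim66, the fourth of this class, had 1 to 3 counts and was not tested.

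A pair of further members came close to the threshold. Trim37, a ligase of peroxisomes and centrioles, had 77.5 and 76.9 against 72.2 and 70.0 CPM (-0.12 ± 0.04; edgeR adjusted p = 0.0515; 0.335 by DESeq2). Trim37 was called with DESeq2's size factors (edgeR adjusted p = 0.0482), with a filter at 1 CPM (0.0431) and without a filter (0.0258). Trim35, a SPRY-domain ligase, had 105 and 107 against 112 and 116 CPM (0.10 ± 0.04; edgeR adjusted p = 0.0590; 0.382 by DESeq2). Trim35 and Trim30a were called without a filter on low counts (edgeR adjusted p = 0.0480 and 0.0425).

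Other abundant members showed no difference past the test. Trim27, a repressor that also works at endosomes, had 119 and 120 against 124 and 126 CPM (0.06 ± 0.03; edgeR adjusted p = 0.263). Trim8, which has been tied to SOCS1 and to NF-kB signalling, had 86.8 and 91.6 against 87.7 and 94.5 CPM. Trim44, a RING-less member with a ubiquitin protease type zinc finger, had 78.5 and 82.0 against 86.2 and 81.6 CPM. Trim59, anchored in membranes, had 40.0 and 37.1 against 38.6 and 35.7 CPM. The groups overlapped for Trim8, Trim44 and Trim59 and not for Trim27. The largest positive values, picked out after they were seen, were those of Trim45, a member with a filamin-type repeat, and Trim46, which organises microtubules in axons, both at 0.23 (SE 0.12 and 0.14; edgeR adjusted p = 0.240 and 0.360). Trim13, a membrane-anchored ligase of the endoplasmic reticulum, was at 0.22 ± 0.12 and Trim68 at 0.20 ± 0.10 (edgeR adjusted p = 0.290 and 0.235). For all 4 of these both Dnm3os libraries were above both empty vector libraries, at levels under 10 CPM. That order follows largely from picking the highest values, and 26.2% of all genes tested had it.

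By domain class, 0 of 3 PHD and bromodomain, 0 of 3 NHL, 0 of 3 COS and fibronectin type, 0 of 2 transmembrane and 0 of 3 single-type members (Trim23, Trim37 and Trim45) passed by edgeR or DESeq2. With 12.3% of all genes called by edgeR and 5.82% by DESeq2, classes of 2 or 3 genes show little by a count of 0. At an unadjusted p under 0.05 the single-type members had 1, Trim37, and the other classes 0, beside 23.2% of all genes. SPRY-domain members, Trim47, Trim35 and Trim30a among them, were not counted as a class. Of the muscle RING members, Trim54 and Trim55 had 0 counts and Trim63 had 1 count in all. Around Trim10 on chromosome 17, 5 members lie within 500 kb: Trim26 was expressed, Trim15 had 2 counts in each library, and Trim10, Trim31 and Trim40 had 0. Among members too low to test, Trim17 had 2, 2, 1 and 10 counts and Trim43c 7, 7, 8 and 17, the highest in Dnm3os library 2 for both.

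Levels of different genes were set side by side only per kilobase of transcript, with the length of the GENCODE transcript paired to each accession, which may be cut differently from the authors' transcript. Trim28 was highest at 118 ± 2.22 CPM per kb (SD over all 4 libraries), followed by Trim25 at 59.3 ± 0.983. Trim14 came next at 51.2 ± 1.98 and Trim30a at 38.9 ± 1.75. Trim35 was at 29.9 ± 1.34 and Trim27 at 29.1 ± 0.750. These means were closer than the larger SD, though Trim35 was above Trim27 in each library. Trim8 (25.2 ± 0.983) and Trim26 (17.1 ± 0.680) were below both. Of the 8 highest, 4 are interferon-responsive members.

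Genes that work with the family were then read from lists, to place these values. Of 4 tripartite motif genes with other names, Pml had 66.7 and 68.2 CPM with empty vector against 65.1 and 69.5 with Dnm3os, and Mid1 8.15 and 9.23 against 8.05 and 9.04. Neither passed (edgeR adjusted p = 0.986 and 0.952), Mid2 had 0 counts, and Mefv was too low to test.

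Of 32 tested genes of interferon signalling and its targets, 1 rose, 4 fell and 27 did not pass. That is 15.6% beside 12.3% of all genes (6.51% higher and 5.75% lower), and their median was -0.027. At an unadjusted p below 0.05 by edgeR, 3 were higher and 8 lower, beside 23.2% of all genes in either direction. DESeq2 called 1 higher and 3 lower, beside 5.82% of all genes. Gbp3, a guanylate-binding GTPase, had 31.2 and 32.5 against 22.0 and 20.9 CPM (-0.57 ± 0.06; edgeR adjusted p = 6.03e-07). Herc6, a ligase for the ubiquitin-like ISG15, fell by 0.32 ± 0.06 and Oasl2 by 0.24 ± 0.03 on the log2 scale, whereas Oasl1 rose by 0.19 ± 0.03. Ifit1, named after its values were seen, fell by 0.21 ± 0.05 on the log2 scale (edgeR adjusted p = 0.00679), a call lost by DESeq2 (adjusted p = 0.0657) and without Dnm3os library 1 (edgeR adjusted p = 0.115). Whether this list and the interferon-responsive TRIM members differ was not tested. The interferon gene Ifnb1 was too low to test.

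Of 18 genes of ubiquitin and its conjugation, 0 rose, 2 fell and 16 did not pass, a called share of 11.1% that is close to the 12.3% of all genes. By edgeR 2 were higher and 3 lower at an unadjusted p below 0.05 (23.2% of all genes), whereas DESeq2 called 0 higher and 2 lower (5.82% of all genes). Ube2l6, the E2 that carries ISG15 and can serve Trim25 and Herc6, had 137 and 133 CPM with empty vector against 107 and 104 with Dnm3os. It fell by 0.35 ± 0.03 on the log2 scale (edgeR adjusted p = 9.94e-08). Uba6, an E1 enzyme, fell from 122 ± 2.09 to 107 ± 4.0 CPM (SD, n = 2; edgeR adjusted p = 0.000615), not called without Dnm3os library 2 (edgeR adjusted p = 0.0543). Ube2n, which builds the K63-linked chains of several TRIM ligases, had 121 and 120 against 126 and 129 CPM (edgeR adjusted p = 0.114), and Isg15 itself 113 and 110 against 109 and 109 CPM (edgeR adjusted p = 0.657).

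**Figure D4:**
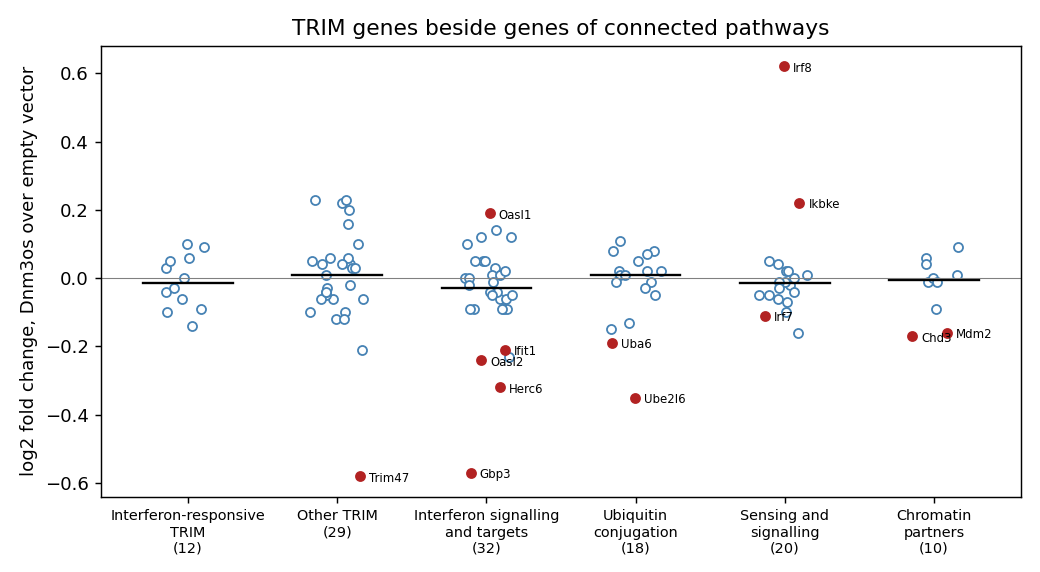
Log2 fold change (Dnm3os over empty vector) of tested genes in 6 lists, 1 point per gene with the number of genes under each name; filled red points passed an adjusted p of 0.05 and bars are medians. All 12 interferon-responsive TRIM genes are open points between -0.14 and 0.10, while Trim47, Gbp3, Ube2l6 and Irf8 stand apart.

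Among 20 sensors, adaptors and transcription factors that TRIM proteins are known to act on, 2 rose, 1 fell and 17 did not pass. That called share of 15.0% is close to the 12.3% of all genes (6.51% higher and 5.75% lower). By edgeR 2 were higher and 2 lower at an unadjusted p below 0.05, beside 23.2% of all genes. DESeq2 called 1 higher and 1 lower, beside 5.82% of all genes. Irf8, a macrophage transcription factor and reported substrate of Trim21, had 16.4 and 17.3 CPM with empty vector against 26.6 and 25.4 with Dnm3os. It rose by 0.62 ± 0.07 (edgeR adjusted p = 5.00e-07), while Trim21 had the values given above. Ikbke, a kinase of the interferon pathway, rose by 0.22 ± 0.06 (edgeR adjusted p = 0.0107) and was lost by DESeq2 (adjusted p = 0.109) and when empty vector library 1 or either of the Dnm3os libraries was left out (edgeR adjusted p = 0.147, 0.0950 and 0.0806). Irf7, the amplifier of interferon production, fell from 554 ± 2.73 to 514 ± 3.49 CPM (edgeR adjusted p = 0.0102), and was lost without the same 3 libraries in turn (0.0604, 0.0719 and 0.124). Of 10 chromatin partners of Trim24, Trim28 and Trim33, 0 rose and 2 fell (20%, beside 12.3% of all genes called and 5.75% called lower): Chd3, a nucleosome remodeller recruited with Trim28 (-0.17 ± 0.04), and Mdm2, a ligase for p53 (-0.16 ± 0.03). Chd3 was lost without Dnm3os library 1 (edgeR adjusted p = 0.0599). At an unadjusted p below 0.05 by edgeR 0 of the 10 were higher and 3 lower, beside 23.2% of all genes in either direction. DESeq2 called 0 higher and 2 lower, beside 5.82% of all genes.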

How the data were processed

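Per the labels' protocols, total RNA was selected for poly(A) and made into libraries with a TruSeq kit. TopHat, Bowtie2, DESeq2 and build mm9 appear in the submitters' processing notes, with neither versions nor roles; how reads were counted, with which annotation and whether by strand is not given in the sources used here. Per the file headers, the authors deposited 2 values for each of 35786 RefSeq transcripts, a raw read count and a normalized one. The normalized values, a scaled signal in which the authors multiplied raw counts by 1 constant per library (0.8653 to 1.1723), were not tested.

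RefSeq (35494) and GENCODE (183) tables gave symbols; 109 transcripts without one (0.246 to 0.276% of counts) kept their accession, and the 45S ribosomal RNA (0.0437 to 0.0813%) was left out. Where a gene had several transcripts, that with the highest mean was used, since most transcripts of a TRIM gene had nearly the same counts. Those of Trim7 and Trim52 differed most, and smaller gaps were seen in others, Trim3 and Trim30d among them. After filterByExpr, edgeR 4.0.16 in R 4.3.3 (TMM factors between 0.9970 and 1.0030, glmQLFit with the robust option) gave fold changes and p-values, and DESeq2 1.42.0 served as an alternative. CPM use TMM-scaled library sizes. The SE was taken as the size of the log2 fold change divided by the root of F, and 95% intervals use the fit's degrees of freedom. Words of 50 bases were compared with all GENCODE M21 transcripts.

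The members and lists, from general knowledge of the family, were chosen with earlier results of these data known. Named genes were every called member, every interferon-responsive member, members with adjusted p from 0.05 to 0.10, the 8 most abundant other tested members, Trim24, Trim28, Trim33, Dnm3os, and up to 4 called genes per context list; any further gene was chosen after its values were seen. Alternatives were other scalings, DESeq2, other filters, a replicate block, summed isoforms and each library left out. In the last, a lone library is assumed to vary like the others. Summing isoforms added nearly equal counts of the Trim47 transcripts, so for Trim47 that fit largely repeats the main one. A further marker of other cell types, left out irrespective of its value, is not reported here.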

Additional observations from a re-analysis of the deposited data

How the results depend on the processing

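Trim47 was lower and called in all 11 alternatives. The median log2 fold change ran from -0.02 to 0.0028 for the interferon-responsive members and from -0.00099 to 0.028 for the others. These moves were smaller than the SD between replicates of the median level (0.042 and 0.109 on the log2 scale). That SD describes levels and is a wide measure for a median fold change. Members called lower numbered 2 (both among the other members) with DESeq2's size factors, with a filter at 1 CPM in 2 libraries and with no filter on low counts, the addition being Trim37. With no filter, 2 members were called higher, 1 interferon-responsive (Trim30a) and 1 other (Trim35). Calls over all genes were 949 higher and 935 lower with no filter, and 788 and 794 with the filter at 1 CPM. They were 828 and 768 with DESeq2's size factors, and 858 and 758 in the main fit. Over all genes, DESeq2 called 404 higher and 362 lower against 858 and 758. With each library left out in turn, 465 to 808 genes were higher and 396 to 786 lower, while 0 members were higher and 1 lower each time; without Dnm3os library 1 the counts over all genes were 492 and 455, and without Dnm3os library 2 they were 465 and 396. Each of those fits has 1 library fewer. Uncalled members near 0 changed sign with a library left out: over the 4 such fits, Trim26 ran from -0.06 to 0.05, Trim8 from -0.02 to 0.08, Trim33 from -0.06 to 0.002, Trim5 from -0.21 to 0.10, Trim12c from -0.06 to 0.006 and Trim30d from -0.0005 to 0.10.

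The labels give replicate numbers and name no pairing of the libraries. Deviations from the group means correlated at -0.063 between same-numbered libraries. With 2 libraries per group this is a single value apart from its sign, and it cannot decide whether libraries were paired. With a replicate block, 868 genes were higher and 782 lower, and Trim47 stayed the single member called (-0.58; edgeR adjusted p = 5.82e-08), with medians of -0.015 and 0.0063. Depth limits what can be said of the 27 untested members, and 5 of the tested members with few counts allow changes past 1.5-fold.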
